A study of Homo sapiens with 48 samples.

Results

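The collagen genes were the 44 genes, of 58870 in the count tables, whose symbol is COL, a number, A and a number. They were followed in 3 established uveal melanoma cell lines, 92-1, MEL202 and MP41, which derive from melanomas of the pigmented layer of the eye and all carry the genotype label WT. Cells of each line received FHT-1015, which inhibits SMARCA4 and SMARCA2, the ATPases of the BAF chromatin remodelling complexes, or its solvent DMSO, for 4 h or 24 h. The line 92-1 was also treated with IDE196, a protein kinase C inhibitor, for 4 h or 24 h, with a DMSO set of its own. Poly-A RNA was sequenced from 3 libraries, labelled as biological replicates, in each of 16 groups, 48 libraries in all. The labels give no doses. Nothing in them says whether the replicates came from separate cultures, so p-values measure only the spread between these libraries. Below, the libraries of a line with a drug and with its DMSO are together called an experiment. The labels name no batch and do not say whether the lines were treated together. A difference between lines therefore cannot be told apart from a difference between these sets of libraries.

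Collagens are trimeric proteins of the extracellular matrix, and each of their alpha chains is encoded by its own gene. Fibrillar collagens form the ropes of connective tissue, network-forming type IV collagen holds the basement membrane together, and type VI collagen forms beaded filaments around cells. FACIT collagens coat the surface of fibrils, multiplexins link basement membranes to the matrix beside them, and a few collagens span the cell membrane. By these classes the 44 genes comprised 11 fibrillar, 10 FACIT, 9 network-forming, 5 beaded-filament, 4 transmembrane and 2 multiplexin genes, the anchoring-fibril gene COL7A1, and COL26A1 and COL28A1, which were placed in no class.

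Upstream sequences are shown for the neighbours COL4A1 and COL4A2 and for 4 other genes that recur in the comparisons. COL4A1 and COL4A2 encode the common chains of type IV collagen and start 127 bases apart on opposite strands of chromosome 13. The interval between their starts (chr13:110307157-110307284, plus strand) had 79.7% G and C. COL4A5 encodes a type IV chain of more restricted tissue distribution, COL9A1 a chain of the FACIT collagen IX, and COL11A1 and COL11A2 chains of the minor fibrillar collagen XI. For these genes the 250 bases before the start site are printed on the gene's own strand: COL4A5 at chrX:108439588-108439837 (plus), COL9A1 at chr6:70303085-70303334 (minus), COL11A1 at chr1:103108523-103108772 (minus) and COL11A2 at chr6:33193138-33193387 (minus). Capitals mark the letters ACAANG, a short core bound by SOX factors, on either strand.
COL4A1 and COL4A2, between the starts: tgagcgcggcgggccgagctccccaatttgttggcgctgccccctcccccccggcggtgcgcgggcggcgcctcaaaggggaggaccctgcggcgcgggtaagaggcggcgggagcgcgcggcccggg
COL4A5: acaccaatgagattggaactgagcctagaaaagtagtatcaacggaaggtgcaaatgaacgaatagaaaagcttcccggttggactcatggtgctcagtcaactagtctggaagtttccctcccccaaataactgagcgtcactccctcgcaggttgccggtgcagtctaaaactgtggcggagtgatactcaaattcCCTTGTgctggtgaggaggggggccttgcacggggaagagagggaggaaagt
COL9A1: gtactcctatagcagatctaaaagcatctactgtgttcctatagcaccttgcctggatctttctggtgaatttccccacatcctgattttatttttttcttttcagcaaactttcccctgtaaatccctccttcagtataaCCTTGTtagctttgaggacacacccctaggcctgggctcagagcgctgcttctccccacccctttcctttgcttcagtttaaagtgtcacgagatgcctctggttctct
COL11A1: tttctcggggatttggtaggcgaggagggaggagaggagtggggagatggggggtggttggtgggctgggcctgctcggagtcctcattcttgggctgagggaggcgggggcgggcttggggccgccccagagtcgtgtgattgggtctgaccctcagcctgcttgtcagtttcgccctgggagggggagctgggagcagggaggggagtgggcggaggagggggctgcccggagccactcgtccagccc
COL11A2: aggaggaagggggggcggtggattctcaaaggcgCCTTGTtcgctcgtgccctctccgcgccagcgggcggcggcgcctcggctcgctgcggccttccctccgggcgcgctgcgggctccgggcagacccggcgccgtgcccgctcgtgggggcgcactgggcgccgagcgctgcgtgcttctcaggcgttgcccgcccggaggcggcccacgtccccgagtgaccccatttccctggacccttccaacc
The sequences are RefSeq's, build GRCh38.p14, in which 32 of the 44 genes had an upstream window. Where a gene had several entries, the one nearest to the annotated gene start was used. ACAANG stood in 8 of these 32 windows and in 30.87% of 35116 windows of the same length. TGANTCA, the AP-1 core, stood in 1 of 32 against 6.573% of all windows, and CACGTG, an E-box, in 0 of 32 against 6.345%, both strands searched. A match to these letters is a description of the sequence and does not show that a factor binds there.

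Reads assigned to genes ran from 11394088 to 32317711 per library, and no pair of libraries held identical counts. MEL202 with FHT-1015 at 4 h, replicate 2, had the fewest genes with a read, 17592 against a median of 22780. All 7 melanocyte markers of a fixed list had reads in every group, and 6 or 7 of them exceeded 1 CPM (reads of a gene per 1000000 reads assigned in its library, with TMM scaling). Their summed level lay between 2748 and 23060 CPM per library. The markers of other cell types summed to at most 15.1 CPM for 6 fibroblast genes, 4.30 for 4 endothelial genes, 6.11 for 4 leukocyte genes and 18.7 for 4 epithelial genes in any library.

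Of the 44 collagen genes, 22 had enough reads to be tested in each of the 4 experiments, 13 in some of them and 9 in none. The 9 too low to test anywhere were the basement-membrane chain COL4A3, the type VI chain COL6A5, the type VIII chains COL8A1 and COL8A2, COL10A1, the FACIT genes COL20A1, COL21A1 and COL22A1, and COL28A1. None of these 9 had more than 13 reads in any library. In the FHT-1015 experiments 17 genes were too low in 92-1, 15 in MEL202 and 12 in MP41, and 14 were too low in the IDE196 experiment. COL5A3, COL6A6 and COL14A1 could be tested in MP41 alone. COL4A4 could be tested only in the FHT-1015 experiments on 92-1 and MEL202, COL23A1 only in MEL202 and MP41, and COL1A2 only in MP41 and the IDE196 experiment. The other 7 were tested in 3 experiments each: COL2A1 and COL13A1 were too low in MEL202, COL3A1, COL5A1 and COL17A1 in the FHT-1015 experiment on 92-1, and COL4A6 and COL6A3 in MP41.

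In DMSO the 3 lines shared a small set of abundant collagen transcripts and differed most in COL11A1. Per kilobase of exon, COL9A3, the third chain of collagen IX, led in 92-1 at 34.9 ± 7.92 RPKM (CPM per kilobase of exon, SD, n = 6, both times pooled), and the type VI chains COL6A1 (19.6 ± 1.97 RPKM) and COL6A2 (11.4 ± 1.03 RPKM) came next. In MEL202 the order was COL11A1 (203 ± 58.4 RPKM), COL9A3 (100.7 ± 18.4 RPKM), COL6A1 (39.8 ± 6.71 RPKM) and COL6A2 (34.8 ± 3.63 RPKM). MP41 had the same order, with COL11A1 at 115 ± 7.48, COL9A3 at 40.2 ± 11.53, COL6A1 at 10.6 ± 3.18 and COL6A2 at 6.93 ± 2.19 RPKM. The ranges of COL6A1 and COL6A2 overlapped in MEL202 and MP41, whereas the 3 leading genes of 92-1 did not overlap each other. The 3 leading genes held 67.6% of the summed collagen level in 92-1, 82.8% in MEL202 and 86.8% in MP41. Orders and shares depend on the length used, all annotated exons of a gene, which is 19293 bases for COL4A2 and 5343 for COL6A1. In CPM, COL4A2 (136) stood above COL6A1 (104.8) and COL6A2 (61.6) in 92-1. In each line 11 collagen genes reached 1 RPKM, and between 19 and 24 lay under 0.1 RPKM.

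**Figure D1:**
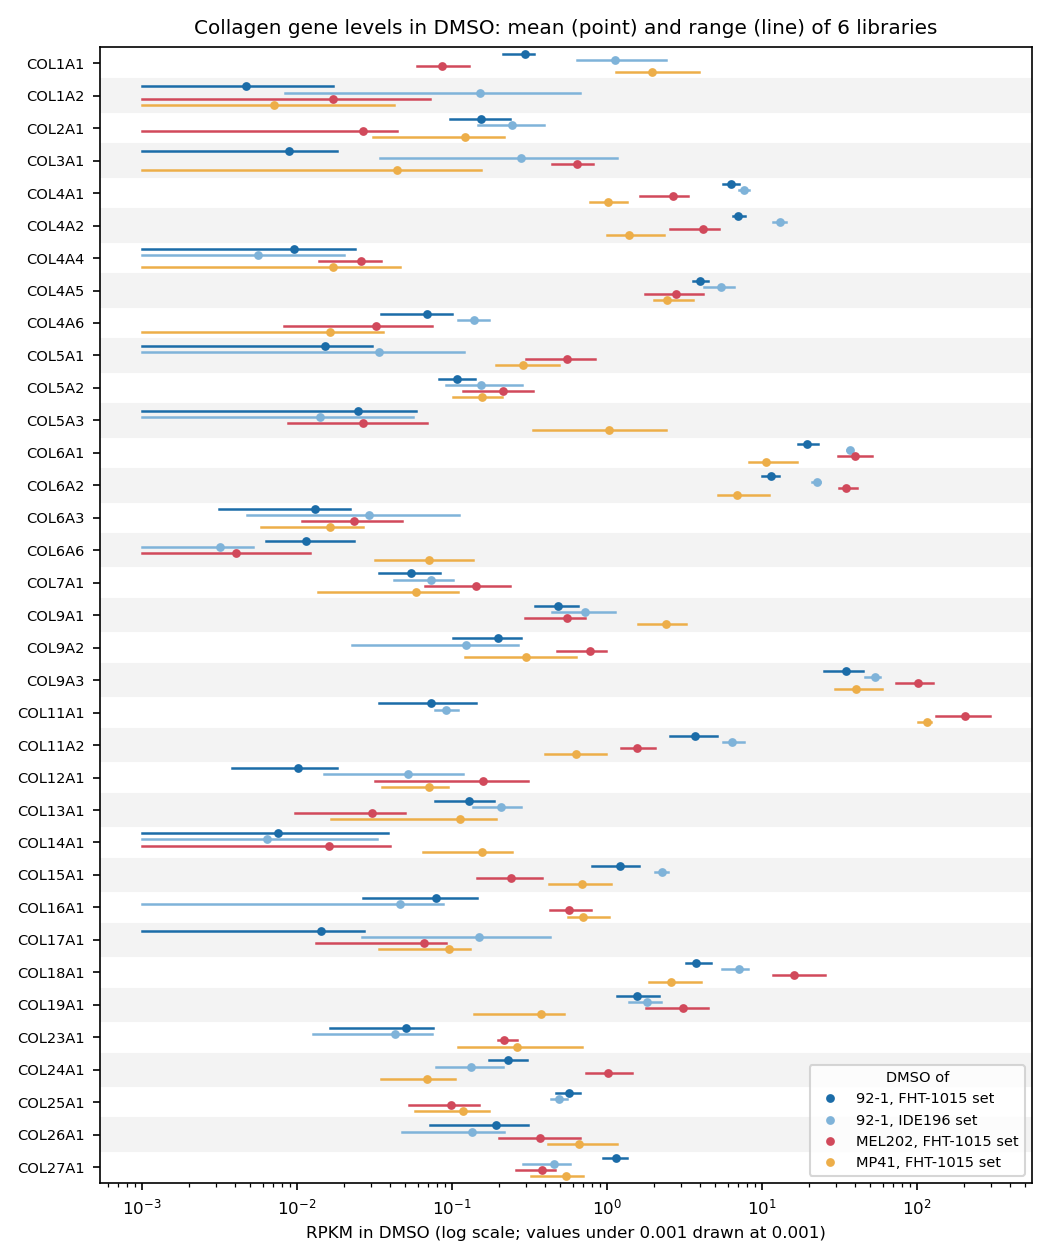
Levels of the 35 collagen genes tested in at least 1 experiment, in DMSO, as RPKM on a log axis; points are means and lines the range of 6 libraries, coloured by line and DMSO set. COL11A1 stands at 203 and 115 RPKM in MEL202 and MP41 and at 0.0734 and 0.0920 RPKM in the 92-1 sets, while COL9A3, COL6A1 and COL6A2 are high in every set.

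COL11A1 (chr1:102876467-103108872, minus strand) was 11.45 log2 units higher in MEL202 than in 92-1 (SE 0.23, edgeR adjusted p = 3.17e-27) and 10.64 higher in MP41 than in 92-1 (SE 0.23, edgeR adjusted p = 9.99e-27). Its 6 DMSO libraries of 92-1 held between 0.307 and 1.29 CPM, those of MP41 between 927.5 and 1118 CPM, and those of MEL202 between 1204 and 2671 CPM, so that no line overlapped another. Its partner chain COL11A2 (chr6:33162681-33192499, minus strand) was highest in 92-1 and lowest in MP41, with a log2 difference of -1.16 from 92-1 to MEL202 (SE 0.19, edgeR adjusted p = 6.34e-06) and of -1.40 from MEL202 to MP41 (SE 0.20, edgeR adjusted p = 5e-07). COL1A1, the main chain of type I collagen, was highest in MP41, 2.69 log2 units above 92-1 (SE 0.35, edgeR adjusted p = 4.63e-08), and lowest in MEL202. The 92-1 libraries of this contrast held 2.10 to 3.33 CPM of it, whereas those of the DMSO set for IDE196 held 6.29 to 23.6 CPM and overlapped the 11.23 to 38.3 CPM of MP41. COL3A1, the type III chain, was highest in MEL202. No DMSO library of 92-1 in the FHT-1015 experiment held more than 3 reads of it, so no fold or p-value against 92-1 is given. This too held for the FHT-1015 set alone, at 0 to 0.123 CPM in 92-1, since the DMSO set for IDE196 ran from 0.233 to 7.95 CPM and overlapped the 3.03 to 5.54 CPM of MEL202. COL5A3 ran from 2.235 to 16.17 CPM in MP41 and from 0 to 0.398 CPM in 92-1, where 2 of 6 libraries held more than 3 reads. It had enough reads for its own test in MP41 alone, so no fold or p-value between lines is given. COL4A1 was highest in 92-1 and lowest in MP41, with log2 differences of -1.22 from 92-1 to MEL202 and -1.38 from MEL202 to MP41 (edgeR adjusted p = 5.72e-08 and 4.94e-09).

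Of 35 collagen genes tested over the 3 lines, 27 differed between MEL202 and 92-1 (52.9% of all genes tested did), 26 between MP41 and 92-1 (65% of all genes) and 25 between MP41 and MEL202 (56% of all genes). All 3 pairs differed for 16 of the 35 (22.9% of all genes) and none for 3 (18.5% of all genes). The DMSO sets of 92-1 also differed from each other: 18 of 31 collagen genes were called, against 60.4% of all genes, 16 of them higher in the IDE196 set (29.3% of all genes). COL6A1, for example, was at 19.6 ± 1.97 RPKM in the FHT-1015 set and at 36.9 ± 0.932 RPKM in the IDE196 set (SD, n = 6). Each drug was compared only with its own DMSO at the same time.

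Few collagen genes were called between the DMSO time points. In the FHT-1015 experiment on 92-1, COL11A2 rose from 20.2, 18.3 and 17.3 CPM at 4 h to 27.6, 34.8 and 31.4 CPM at 24 h (log2 difference 0.76, edgeR adjusted p = 0.0175), as did 0.344% of all genes in either direction, and leaving out any one of 4 libraries ended this call. No collagen gene was called by edgeR in the other 3 experiments, against 0%, 2.59% and 0.266% of all genes in MEL202, MP41 and the IDE196 set. An unadjusted p under 0.05, a looser threshold, was met by 1 of 29, 9 of 32 and 8 of 30 collagen genes. The share of all genes at that looser threshold is not given here. In MP41 DESeq2 called 4, limma-voom called 12, and edgeR called 12 once DMSO at 24 h, replicate 3, was left out. The shares of all genes called in those fits are not given here, so these counts cannot be read as particular to collagen genes. DMSO at 24 h, replicate 2, was the highest of the 3 MP41 libraries for COL5A3 (16.2 against 6.49 and 8.23 CPM), COL1A1 (38.3 against 19.1 and 16.1 CPM) and COL4A1 (19.8 against 13.8 and 11.4 CPM).

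After 4 h of FHT-1015 collagen genes were called in 92-1 and none in the other lines. In 92-1, 5 of 27 were called (29.5% of all genes), 1 of them higher (12.9% of all genes) and 4 lower (16.7%). With limma-voom 9 were called lower, and the share of all genes under that method is not given here. COL19A1, a FACIT collagen, was at 15.5, 13.9 and 18.4 CPM in DMSO and at 31.4, 29.3 and 20.02 CPM with the drug, without overlap (log2 fold change 0.74, SE 0.15, edgeR adjusted p = 0.00186). COL18A1, the multiplexin whose end is cleaved to endostatin, went from 33.2, 39.9 and 32.8 CPM to 22.5, 27.5 and 24.2 CPM (log2 fold change -0.54, SE 0.11, edgeR adjusted p = 0.00186). COL4A1 went from 95.9, 99.6 and 84.7 CPM to 75.0, 70.1 and 51.6 CPM (log2 fold change -0.53, SE 0.13, edgeR adjusted p = 0.00458). These groups did not overlap either. Its neighbour COL4A2 fell by 0.37 log2 units (SE 0.09, edgeR adjusted p = 0.00764), a call that ended with offsets for GC content and length (edgeR adjusted p = 0.238). COL11A1, at most 1.29 CPM in any 92-1 library of that time, fell by 1.53 (edgeR adjusted p = 0.0246), and DESeq2 or the loss of any one of 4 libraries ended that call. The summed melanocyte markers of 92-1 were lower at 4 h too, at 20240 to 21400 CPM in DMSO and 15650 to 17840 CPM with the drug. Among them SOX10 averaged 443 and 14.8 CPM. These sums overlapped in MEL202 and MP41, and the part of the markers was not tested.

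In MEL202 edgeR called 0 of 29 collagen genes at 4 h, against 0.679% of all genes, 0.157% higher and 0.522% lower. Unadjusted p-values were under 0.05 for 2 higher and 1 lower, and DESeq2 called 1 lower. In MP41 edgeR called 0 of 32, against 0.225% of all genes, 0.0708% higher and 0.154% lower, with 2 higher and 0 lower at an unadjusted p under 0.05. DESeq2 called 1 and limma-voom 2 higher there, and the shares of all genes under these methods are not given here. The spread between replicates was wider in these lines, with an edgeR biological coefficient of variation of 0.294 in MEL202 and 0.217 in MP41 against 0.117 in 92-1. Tested directly, the effect at 4 h differed among the lines for 0 of 35 collagen genes by edgeR, against 1.38% of all genes. An unadjusted p under 0.05 was met by 5 collagen genes, and limma-voom called 0.

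After 24 h of FHT-1015 collagen genes were called in each line, more of them lower than higher. In 92-1, 24 of 27 were called (60.6% of all genes), 11 of them higher (29.2%) and 13 lower (31.4%). In MEL202, 14 of 29 were called (18.8% of all genes), 5 higher (8.69%) and 9 lower (10.1%). In MP41, 14 of 32 were called (36.1% of all genes), 2 higher (17.4%) and 12 lower (18.7%). The median log2 fold change of the collagen genes was -0.53, -0.40 and -0.14 in 92-1, MEL202 and MP41, and that of all genes -8e-04, -0.01 and 0.07. The calls in 92-1 and MP41 mostly stood whichever library or setting was changed, with 21 of 24 and 12 of 14 kept in every fit, whereas only 4 of 14 were kept in MEL202. There the count higher was 3 without DMSO at 24 h, replicate 1, or without FHT-1015 at 24 h, replicate 1 or 3, and 2 without DMSO at 24 h, replicate 3. The count lower was 5 without any one of the DMSO libraries at 24 h, 4 without FHT-1015 at 24 h, replicate 1 or 2, and 3 without replicate 3. The count higher in MP41 was 5 without DMSO at 24 h, replicate 2, and 1 without FHT-1015 replicate 1 or 3 at either time. At 24 h the summed melanocyte markers of 92-1 lay between 18990 and 23060 CPM in DMSO and between 4854 and 5320 CPM with FHT-1015. In MEL202 they lay between 7879 and 9596 CPM and between 2748 and 3187 CPM, and in MP41 between 11630 and 12630 CPM and between 5369 and 5935 CPM. Markers of other cell types, at low levels, also moved without overlap at 24 h. In MEL202 the endothelial sum was 0.611 to 1.92 CPM in DMSO and 1.99 to 4.30 CPM with the drug. With the drug only KDR of that list had reads. PECAM1 and VWF averaged 0.0816 and 0.131 CPM in DMSO, and CDH5 had no read in either group. The epithelial sum of MEL202 was 2.14 to 3.14 and 3.31 to 6.28 CPM, and the leukocyte sum 1.45 to 1.77 and 0.186 to 0.312 CPM. In MP41 the leukocyte sum was 1.51 to 2.03 and 0.272 to 0.648 CPM, and in 92-1 the epithelial sum was 0.737 to 1.10 and 0.489 to 0.718 CPM. The part of these markers in the collagen results was not tested, and in bulk RNA fewer cells of a type and less RNA per cell cannot be told apart.

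**Figure D2:**
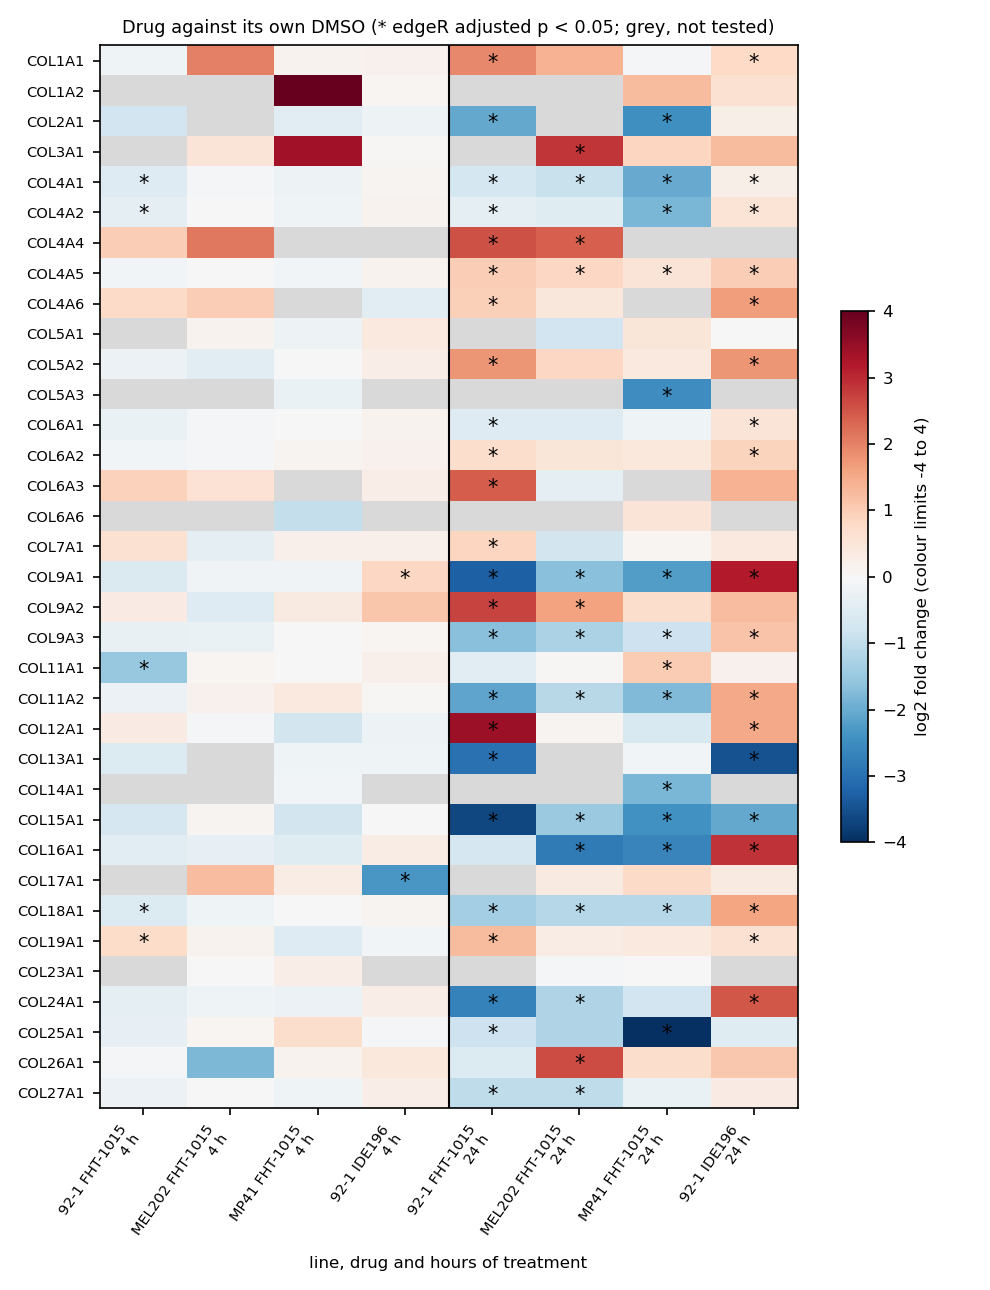
Fitted log2 fold change of each drug against its own DMSO for the 35 collagen genes tested in at least 1 experiment, with 4 h at left and 24 h at right; stars mark an edgeR adjusted p under 0.05 and grey cells were not tested. Blue stars gather in the FHT-1015 columns at 24 h and red stars in the IDE196 column at 24 h (16 higher, 2 lower); the dark COL1A2 cell of MP41 at 4 h was not called, its DMSO libraries having no read.

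Of the 22 collagen genes tested in every experiment, 6 were called lower at 24 h in all 3 lines, against 7.77% of all genes tested in every experiment: COL4A1, COL9A1, COL9A3, COL11A2, COL15A1 and COL18A1. COL4A5 was the 1 called higher in all 3 (5.01% of all genes), and 0 of the 22 had opposite calls between lines (1.87% of all genes). Only COL9A3 kept its call in all 3 lines in every fit with a library left out or a setting changed.

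Collagen IX and its partner collagen XI, which share fibrils in cartilage and the vitreous of the eye, were represented among the 6 by COL9A1, COL9A3 and COL11A2. COL9A3 (chr20:62816244-62841159, plus strand) went from 160.1, 212 and 218 CPM to 65.4, 60.8 and 60.5 CPM in 92-1 (-1.68 on the log2 scale, SE 0.17, edgeR adjusted p = 4.69e-07). In MEL202 it went from 613, 439.9 and 491 CPM to 178, 246 and 213 CPM (-1.26, SE 0.23, edgeR adjusted p = 0.00205), and in MP41 from 212, 288 and 217 CPM to 85.7, 153 and 147 CPM (-0.83, SE 0.19, edgeR adjusted p = 0.00443). The drug libraries lay below every DMSO library of the same time in each line, although in MP41 the lowest DMSO library of either time held 144 CPM. COL9A1 (chr6:70215061-70303083, minus strand) stood at 3.63, 3.25 and 3.87 CPM in DMSO and at 0, 0.651 and 0.479 CPM with the drug in 92-1 (-3.27, SE 0.55, edgeR adjusted p = 1.00e-04). It went from 16.1, 23.4 and 17.7 CPM to 3.29, 5.17 and 3.21 CPM in MP41 (-2.22, SE 0.25, edgeR adjusted p = 2.12e-05). In MEL202 COL9A1 fell by 1.67 log2 units (SE 0.44, edgeR adjusted p = 0.0168), and 3 of 12 fits without a library lost the call (highest edgeR adjusted p = 0.0692).

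The second chain of collagen IX moved the other way. COL9A2 rose from 0.430, 0.614 and 1.17 CPM to 5.57, 4.80 and 4.13 CPM in 92-1 (2.71 on the log2 scale, SE 0.33, edgeR adjusted p = 4.25e-06) and from 3.51, 3.26 and 2.02 CPM to 9.18, 8.63 and 8.66 CPM in MEL202 (1.62, SE 0.40, edgeR adjusted p = 0.0118). The MEL202 call was lost without DMSO at 24 h, replicate 3 (edgeR adjusted p = 0.0692). In MP41 its log2 fold change was 0.71 and did not pass the test (SE 0.35, edgeR adjusted p = 0.127). COL11A2 went from 27.6, 34.8 and 31.4 CPM to 8.5, 7.08 and 6.34 CPM in 92-1 (-2.12, SE 0.14, edgeR adjusted p = 5.26e-09), below every DMSO library of that time. It fell by 1.77 log2 units in MP41 (SE 0.29, edgeR adjusted p = 0.000409) and by 1.10 in MEL202 (SE 0.36, edgeR adjusted p = 0.0476), where 8 of 12 fits without a library and RLE (median-ratio) scaling in place of TMM lost the call. COL11A1 rose in MP41 from 1032, 1048 and 927.5 CPM to 1912, 1865 and 1993 CPM (log2 fold change 1.00, SE 0.13, edgeR adjusted p = 6.76e-05), and it missed the threshold in MEL202 (log2 fold change 0.05, SE 0.24, edgeR adjusted p = 0.910) or in 92-1 (-0.45, SE 0.51, edgeR adjusted p = 0.466). COL2A1, the main cartilage fibril chain, fell by 2.05 log2 units in 92-1 (SE 0.60, edgeR adjusted p = 0.00766) and by 2.45 in MP41 (SE 0.63, edgeR adjusted p = 0.00856), from means of 1.14 and 1.11 CPM.

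**Figure D3:**
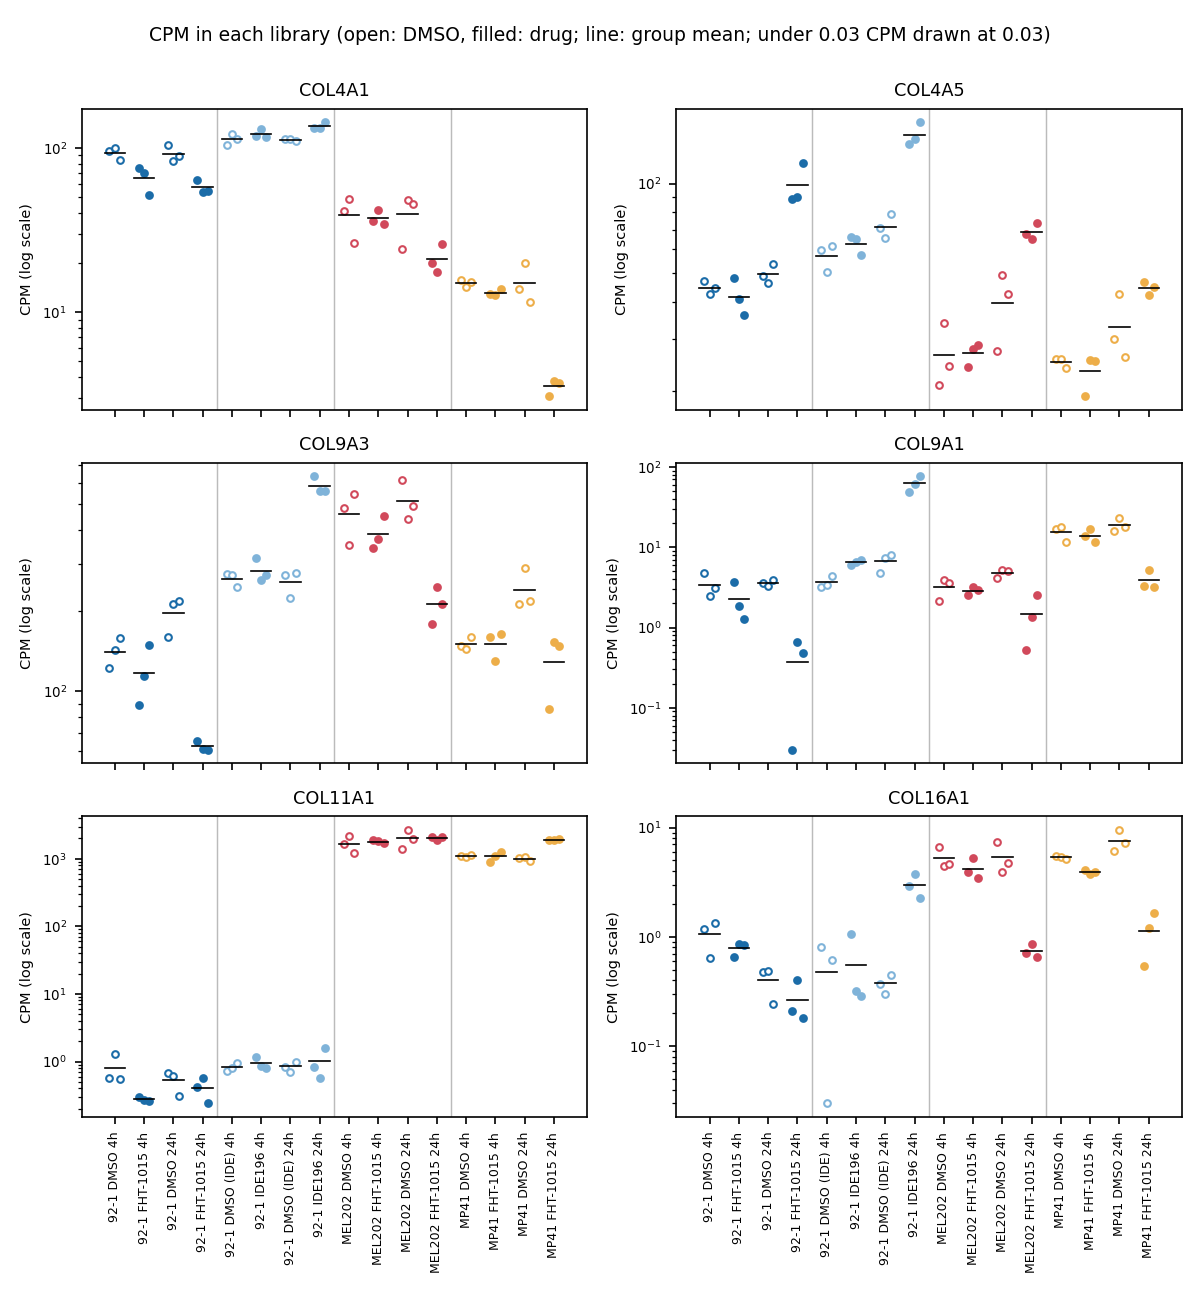
CPM on log axes for 6 collagen genes in all 48 libraries, open circles for DMSO, filled circles for drug and short lines for group means. COL9A1 and COL9A3 are lower with FHT-1015 at 24 h in each line and higher with IDE196 at 24 h, COL11A1 is at most 1.61 CPM in 92-1 and at least 893.6 CPM in MEL202 and MP41, and COL4A5 is higher with both drugs at 24 h.

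Among the basement-membrane genes, COL4A1, COL15A1 and COL18A1 were called lower in all 3 lines and COL4A2 in 92-1 and MP41, while COL4A5 was called higher in all 3, COL4A4 in 92-1 and MEL202, and COL4A6 in 92-1. COL4A1 (chr13:110148963-110307233, minus strand) went from 13.8, 19.8 and 11.4 CPM to 3.08, 3.81 and 3.72 CPM in MP41 (-2.01 on the log2 scale, SE 0.19, edgeR adjusted p = 4.52e-06) and from 104, 83.0 and 89.4 CPM to 63.9, 54.0 and 54.4 CPM in 92-1 (-0.70, SE 0.13, edgeR adjusted p = 0.000181). In MEL202 its groups overlapped, at 24.2, 48.3 and 45.7 CPM against 19.8, 17.4 and 26.0 CPM, and 7 of 12 fits without a library, RLE scaling and the replicate block lost its call (-0.88, edgeR adjusted p = 0.0463). COL4A2 (chr13:110305812-110513209, plus strand), which shares the start interval printed above, fell by 1.84 in MP41 (SE 0.24, edgeR adjusted p = 6.92e-05) and by 0.39 in 92-1 (SE 0.09, edgeR adjusted p = 0.0021). Its log2 fold change of -0.49 in MEL202 did not pass the test (SE 0.28, edgeR adjusted p = 0.266). COL4A2 also overlaps antisense genes, whose reads cannot be told from its own without strand. For both genes the effect of FHT-1015 differed among the lines, with edgeR adjusted p-values of 0.00474 and 0.00178 and the largest decrease in MP41.

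COL15A1 (chr9:98943179-99070792, plus strand), a multiplexin of basement membrane zones, went from 8.64, 5.34 and 7.74 CPM to 0.418, 1.22 and 0.239 CPM in 92-1 (-3.64 on the log2 scale, SE 0.36, edgeR adjusted p = 4.19e-07). It went from 4.40, 7.01 and 5.94 CPM to 0.918, 1.05 and 1.08 CPM in MP41 (-2.43, SE 0.36, edgeR adjusted p = 0.00019). The MEL202 call of COL15A1 (-1.47, edgeR adjusted p = 0.0443) rested on 1.43 CPM in DMSO and was lost in 8 of 12 fits without a library and with no filter. COL18A1 (chr21:45405137-45513720, plus strand) went from 27.4, 28.6 and 29.3 CPM to 12.4, 10.8 and 10.5 CPM in 92-1, from 111, 145 and 121 CPM to 61.2, 55.4 and 50.8 CPM in MEL202, and from 25.5, 34.6 and 21.0 CPM to 12.9, 9.48 and 12.5 CPM in MP41. No drug library reached a DMSO library of the same time in any line (log2 fold changes -1.36, -1.15 and -1.15, edgeR adjusted p = 1.18e-07, 0.0101 and 0.000422). In MEL202 the call was lost without FHT-1015 at 24 h, replicate 3 (edgeR adjusted p = 0.0521). COL18A1 shares 16.4% of its exon length with SLC19A1, whose reads the unstranded counts do not separate.

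COL4A5 (chrX:108439844-108697545, plus strand) rose from 48.9, 46.4 and 53.6 CPM to 88.7, 89.9 and 117 CPM in 92-1 (0.97 on the log2 scale, SE 0.12, edgeR adjusted p = 4.91e-06) and from 27.2, 49.3 and 42.3 CPM to 67.4, 65.2 and 73.5 CPM in MEL202 (0.82, SE 0.24, edgeR adjusted p = 0.0272). In MP41 the groups overlapped, with 30.0, 42.4 and 26.0 CPM in DMSO and 46.8, 42.1 and 44.8 CPM with the drug (0.51, SE 0.17, edgeR adjusted p = 0.0287). The MEL202 call was lost in 5 and the MP41 call in 6 of 12 fits without a library, and the latter also with no filter and with only the 6 libraries compared. COL4A6, which starts 380 bases from COL4A5 on the opposite strand, rose in 92-1 by 0.96 (edgeR adjusted p = 0.0294), and 4 of 12 fits without a library, DESeq2 and the fit with no filter lost that call. COL4A4 rose by 2.56 in 92-1 (SE 0.71, edgeR adjusted p = 0.00553) and by 2.39 in MEL202 (SE 0.64, edgeR adjusted p = 0.0175), to means of 0.692 and 1.68 CPM. In 92-1 its log2 fold change ran from 2.06 to 4.16 over the other fits. In MEL202 5 of 12 fits without a library lost its call (highest edgeR adjusted p = 0.082). COL4A3, its neighbour at 419 bases, was too low to test.

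Among fibrillar collagens other than type XI, no gene was called in all 3 lines, and the direct test of the 24 h effect among lines called none of these genes. In 92-1 COL1A1 rose from 2.63, 3.07 and 3.07 CPM to 10.2, 11.6 and 11.8 CPM (log2 fold change 1.92, SE 0.20, edgeR adjusted p = 8.47e-07) and COL5A2, a chain of the type V collagen that seeds fibrils, from 0.668, 0.614 and 0.860 CPM to 2.86, 1.95 and 2.63 CPM (1.78, SE 0.30, edgeR adjusted p = 9.28e-05). In MEL202 COL3A1 (chr2:188974320-189012746, plus strand) rose from 3.59, 4.48 and 5.54 CPM to 37.2, 28.6 and 32.8 CPM (2.87, SE 0.29, edgeR adjusted p = 2.37e-05). The drug libraries stood far above the DMSO libraries in each of these 3 cases. The summed level of 6 markers of fibroblasts, cells that make much fibrillar collagen, was also higher with the drug at 24 h in each line, without overlap: 3.76 to 5.70 CPM against 1.38 to 1.97 CPM in 92-1, 5.25 to 6.01 against 2.38 to 3.66 CPM in MEL202, and 13.39 to 15.1 against 6.55 to 13.08 CPM in MP41. In 92-1 and MEL202 most of that rise was PDGFRA, which averaged 0.755 CPM in DMSO and 4.18 CPM with the drug in 92-1, and 0.578 and 3.35 CPM in MEL202. In 92-1 the means of LUM, PDGFRB and FAP were lower with the drug (LUM 0.425 against 0.121 CPM), and those of DCN (0.0978 and 0.0942 CPM) and THY1 (0.287 CPM in both groups) nearly equal. In MEL202 LUM, PDGFRB and DCN had lower means with the drug (LUM 1.01 against 0.854 CPM), and FAP (0.648 against 0.958 CPM) and THY1, with a single read, higher ones. In MP41 the rise was mostly LUM, at means of 6.61 CPM in DMSO and 10.6 CPM with the drug. Its libraries overlapped there, at 3.59 to 10.35 CPM and 9.99 to 10.91 CPM. PDGFRA (1.175 and 2.065 CPM) and THY1 also had higher means with the drug in MP41. PDGFRB (1.48 and 1.16 CPM), DCN and FAP had lower ones. Their part in the fibrillar results was not tested. In MP41 COL5A3 fell from 6.49, 16.2 and 8.23 CPM to 1.94, 1.63 and 1.63 CPM (-2.49, SE 0.38, edgeR adjusted p = 0.000239). COL24A1 fell from 1.81, 2.33 and 2.64 CPM to 0.348, 0.407 and 0.299 CPM in 92-1 (-2.70, SE 0.36, edgeR adjusted p = 8.53e-06) and by 1.2 in MEL202 (edgeR adjusted p = 0.0239, lost in 3 of 12 fits). COL27A1 fell by 1.03 in both 92-1 (edgeR adjusted p = 2.03e-05) and MEL202 (edgeR adjusted p = 0.0211, lost in 4 of 12 fits and with no filter).

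The type VI chains of 92-1 were called in different directions: COL6A1 fell from 97.2, 104.6 and 104.6 CPM to 70.8, 71.2 and 73.1 CPM (log2 fold change -0.53, SE 0.11, edgeR adjusted p = 0.00042), while COL6A2 rose from 58.4, 66.4 and 69.4 CPM to 106, 114 and 99.0 CPM (0.69, SE 0.11, edgeR adjusted p = 7.67e-05). COL6A3 rose by 2.41 (SE 0.49, edgeR adjusted p = 0.000572), to a mean of 1.84 CPM. In MEL202 and MP41 neither COL6A1 nor COL6A2 passed the test, with log2 fold changes of -0.53 and -0.17 for COL6A1 and 0.48 and 0.41 for COL6A2 (edgeR adjusted p from 0.0823 to 0.461).

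Of the other FACIT collagens, COL16A1 (chr1:31652247-31704319, minus strand), which is found near basement membranes and fibrils, fell from 7.33, 3.96 and 4.72 CPM to 0.710, 0.859 and 0.652 CPM in MEL202 (-2.82 on the log2 scale, SE 0.35, edgeR adjusted p = 0.000123) and from 6.06, 9.50 and 7.22 CPM to 0.540, 1.21 and 1.66 CPM in MP41 (-2.64, SE 0.30, edgeR adjusted p = 1.83e-05). In 92-1 it was at most 0.491 CPM at this time, and the groups overlapped. COL14A1 fell by 1.82 in MP41 (edgeR adjusted p = 0.0171), and that call was lost without FHT-1015 at 24 h, replicate 2, and with limma-voom, where the log2 fold change was -1.09. COL19A1 rose by 1.25 in 92-1 (SE 0.16, edgeR adjusted p = 5.96e-06), from a mean of 10.8 to 26.2 CPM. COL12A1 in 92-1 had at most 3 reads in each DMSO library and was at least 6.21-fold higher with the drug, taking 3 reads per library as the floor.

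Among transmembrane collagens, COL13A1 was at least 3.72-fold lower in 92-1 and COL25A1 (chr4:108808725-109302752, minus strand) at least 9.08-fold lower in MP41, where the 3 drug libraries had 0, 0 and 2 reads. COL25A1 also fell by 0.82 in 92-1 (edgeR adjusted p = 0.0396), with overlapping groups, and the call was lost in 4 of 12 fits without a library and with only the 6 libraries compared. COL26A1 rose from 0.916, 1.05 and 0.632 CPM to 4.88, 5.08 and 5.68 CPM in MEL202 (2.62 on the log2 scale, SE 0.55, edgeR adjusted p = 0.00457). The anchoring-fibril gene COL7A1 rose by 0.85 in 92-1 (edgeR adjusted p = 0.0475), a call lost in 11 of 12 fits without a library, with no filter, with DESeq2 and with only the 6 libraries compared.

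Tested directly, the 24 h effect of FHT-1015 differed among the 3 lines for 9 of 35 collagen genes, against 12% of all genes. They were COL4A1, COL4A2, COL4A4, COL9A2, COL11A1, COL12A1, COL16A1, COL25A1 and COL26A1, with edgeR adjusted p-values from 0.00178 to 0.0448. The count was 5 without DMSO of 92-1 at 24 h, replicate 1, and 20 with limma-voom, fits whose shares of all genes are not given here. COL9A1, COL9A3, COL11A2, COL15A1 and COL18A1, lower in all 3 lines, were not among the 9, which does not show that their effects were equal. Between 4 h and 24 h the effect of FHT-1015 differed for 14 of 27 collagen genes in 92-1 (45.5% of all genes), 4 of 29 in MEL202 (6.89%) and 11 of 32 in MP41 (18.6%).

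With IDE196 most called collagen genes rose. At 4 h, 2 of 30 were called (16.2% of all genes), 1 higher (6.89%) and 1 lower (9.3%). COL9A1 rose from 3.19, 3.36 and 4.38 CPM to 6.0, 6.52 and 6.90 CPM (log2 fold change 0.82, SE 0.21, edgeR adjusted p = 0.0122), and limma-voom did not call it (adjusted p = 0.0534). COL17A1, a transmembrane collagen of hemidesmosomes named because it was the only one called lower, was at 3.05, 0.681 and 0.762 CPM in DMSO and at 0.132, 0.431 and 0.345 CPM with the drug (-2.32, SE 0.70, edgeR adjusted p = 0.0293). Leaving out DMSO at 4 h, replicate 4, or any one of the drug libraries at 4 h ended that call, as did limma-voom. The epithelial marker KRT5 was also lower in these libraries without overlap, at 5.67, 2.85 and 6.33 CPM in DMSO and 0.618, 0.969 and 1.84 CPM with the drug. Of the other listed epithelial markers, EPCAM (1.62 and 2.11 CPM) and CDH1 (0.831 and 1.37 CPM) had higher means with the drug. KRT8 (3.54 and 2.81 CPM) had a lower one, and each of these overlapped. The summed epithelial markers overlapped as well, and their part in the COL17A1 result was not tested. At 24 h, 18 of 30 were called (58.1% of all genes), 16 higher (28.7%) and 2 lower (29.4%), with a median log2 fold change of 0.85 against 0.03 for all genes. Of these 18 calls 15 were kept in every fit. The effect differed between 24 h and 4 h for 16 of 30 (30.7% of all genes). The summed melanocyte markers lay between 16800 and 19430 CPM in DMSO and between 18520 and 20890 CPM with IDE196 at 24 h. Of the other marker lists the endothelial sum alone did not overlap, at 0 to 0.181 CPM in DMSO and 0.357 to 0.699 CPM with the drug, and its part was not tested.

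COL9A1, a chain of collagen IX, had the largest called increase at 24 h. It rose from 4.80, 7.26 and 8.11 CPM to 49.1, 61.4 and 76.8 CPM (log2 fold change 3.16, SE 0.19, edgeR adjusted p = 3.27e-10), and COL9A3 from 272, 222 and 277 CPM to 636, 562 and 558 CPM (1.14, SE 0.10, edgeR adjusted p = 4.85e-08). COL9A2 had a log2 fold change of 1.22 and did not pass the test (SE 0.53, edgeR adjusted p = 0.0576). COL11A2 rose from 51.6, 41.4 and 50.1 CPM to 143, 121.5 and 153 CPM (1.5, SE 0.10, edgeR adjusted p = 2.49e-09). COL16A1 rose from 0.373, 0.302 and 0.453 CPM to 2.89, 3.73 and 2.26 CPM (2.90, SE 0.63, edgeR adjusted p = 0.000761), and COL24A1 from 1.63, 0.756 and 1.31 CPM to 7.88, 6.46 and 7.26 CPM (2.48, SE 0.38, edgeR adjusted p = 2.51e-05). The drug and DMSO libraries of these called genes did not overlap.

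All 4 type IV chains tested were called higher, COL4A6 by 1.67, COL4A5 by 0.97, COL4A2 by 0.55 and COL4A1 by 0.22 log2 units (edgeR adjusted p = 0.00022, 3.27e-07, 1.49e-05 and 0.0278), but the COL4A1 call was lost in 5 of 12 fits without a library, with no filter on low counts, and under the GC and length offsets, which gave 0.08 log2 units (edgeR adjusted p = 0.427). The multiplexins parted: COL18A1 rose from 55.2, 65.8 and 65.4 CPM to 166, 186 and 221 CPM (log2 fold change 1.57, SE 0.15, edgeR adjusted p = 1.05e-07), and COL15A1 fell from 16.4, 13.6 and 13.6 CPM to 3.68, 3.42 and 3.81 CPM (-2.05, SE 0.13, edgeR adjusted p = 6.88e-10). COL6A1 and COL6A2 rose by 0.52 and 0.90 (edgeR adjusted p = 9.18e-06 and 4.81e-08), and COL5A2, COL12A1, COL1A1 and COL19A1 by 1.78, 1.51, 0.80 and 0.61. COL12A1 and COL1A1 lost their calls in 4 and 3 of 12 fits, COL12A1 also with the GC and length offsets. The other decrease was COL13A1, from 1.40, 1.56 and 1.63 CPM to 0.326, 0.0525 and 0 CPM (-3.47, SE 0.63, edgeR adjusted p = 0.00013). Its call was kept in every other fit, but its log2 fold change ran from -5.54 to -2.98 among them.

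Set side by side in 92-1 at 24 h, each drug against its own DMSO set, 26 collagen genes were tested with both. For 8 of them the calls were opposite, lower with FHT-1015 and higher with IDE196, against 4.63% of all genes: COL4A1, COL4A2, COL6A1, COL9A1, COL9A3, COL11A2, COL18A1 and COL24A1. None was called higher with FHT-1015 and lower with IDE196 (2.46% of all genes). The difference between the drugs' effects was itself called for all 8, from -0.93 log2 units for COL4A1 (SE 0.15, edgeR adjusted p = 2.23e-05) to -6.44 for COL9A1 (SE 0.52, edgeR adjusted p = 1.38e-10). Every one of them except COL4A1 kept its call against DMSO with each drug in every fit. Both drugs raised COL1A1, COL4A5, COL4A6, COL5A2, COL6A2, COL12A1 and COL19A1, 7 of 26 against 15.7% of all genes, and both lowered COL13A1 and COL15A1, 2 of 26 against 20.1%. Among these 9 the effects differed between the drugs for COL1A1, COL15A1 and COL19A1, each moved further by FHT-1015 (differences of 1.12, -1.60 and 0.64, edgeR adjusted p = 0.0192, 0.00162 and 0.0236). A difference between the drugs cannot be told apart from one between their sets of libraries. At 24 h COL1A1 was at 2.63 to 3.07 CPM in DMSO of the FHT-1015 set and 6.29 to 9.11 CPM in that of the IDE196 set. With the drugs it was at 10.2 to 11.8 and 11.45 to 16.5 CPM. In all, the drugs' effects differed for 15 of 31 collagen genes at 24 h (33% of all genes) and for 7 of 31 at 4 h (24.6%). The count at 4 h was 4 without DMSO of 92-1 at 4 h, replicate 2.

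**Figure D4:**
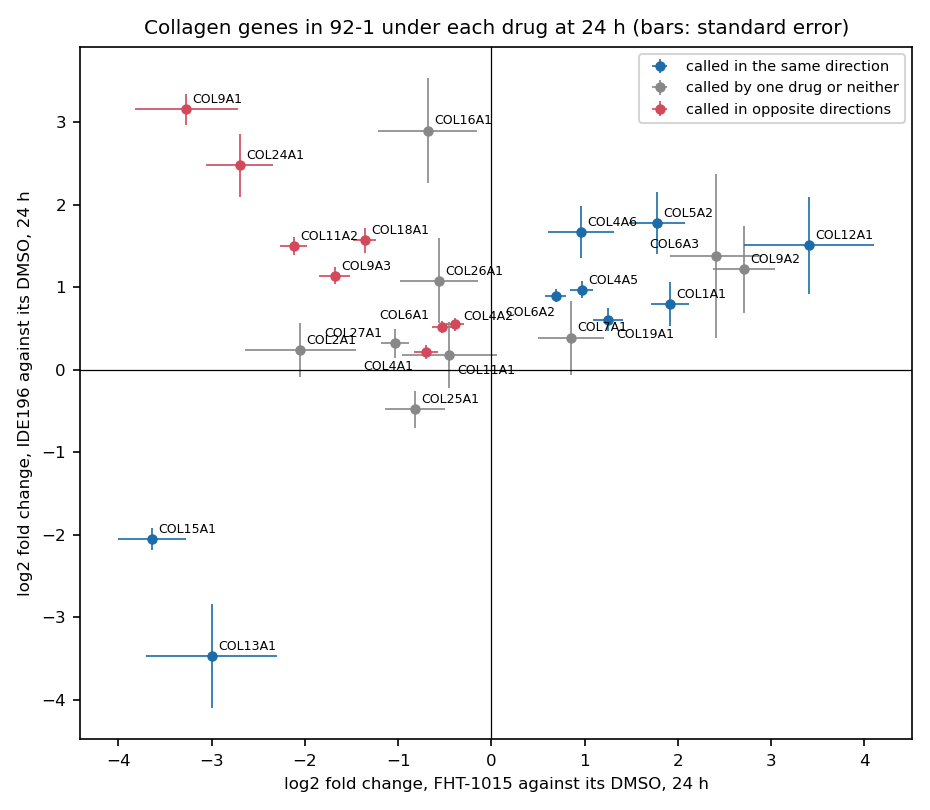
Fitted log2 fold change at 24 h in 92-1 for the 26 collagen genes tested with both drugs, FHT-1015 on the horizontal and IDE196 on the vertical axis, each against its own DMSO, with standard errors as bars. The 8 red genes at upper left were called lower with FHT-1015 and higher with IDE196, and the 9 blue genes were called in the same direction by both.

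Genes that make, cut, bind or degrade collagen were counted from a list of 56. At 24 h FHT-1015 raised 7 and lowered 21 of 39 tested in 92-1, 2 and 11 of 43 in MEL202, and 8 and 14 of 44 in MP41, and IDE196 raised 9 and lowered 14 of 40. Over all genes FHT-1015 raised 29.2% and lowered 31.4% in 92-1, 8.69% and 10.1% in MEL202, and 17.4% and 18.7% in MP41, and IDE196 raised 28.7% and lowered 29.4%. PLOD3, which hydroxylates and glycosylates collagen lysines, fell with FHT-1015 in 92-1, MEL202 and MP41 by 2.10, 1.34 and 1.39 log2 units (edgeR adjusted p = 6.19e-12, 0.00092 and 2.44e-05). ITGA1, the alpha chain of a collagen-binding integrin, rose by 4.12 in 92-1, from 2.98 ± 0.941 to 53.3 ± 4.23 CPM (SD, n = 3, edgeR adjusted p = 1.85e-10). It also rose by 2.39 in MEL202, 2.51 in MP41 and, with IDE196, 0.73 in 92-1 (edgeR adjusted p = 0.00212, 0.000352 and 0.0162). ADGRG1, an adhesion receptor for type III collagen, fell by 3.72 in 92-1, 4.07 in MP41 and 3.73 in MEL202 (edgeR adjusted p = 4.23e-06, 1.41e-07 and 1.4e-05), and its log2 fold change of -0.59 with IDE196 did not pass the test (edgeR adjusted p = 0.0658). TIMP3, an inhibitor of matrix metalloproteinases, fell with FHT-1015 by 2.20 in 92-1, 3.12 in MP41 and 1.54 in MEL202 (edgeR adjusted p = 0.0176, 1.11e-07 and 0.000451). TIMP3 was not called with IDE196 (log2 fold change 0.33, edgeR adjusted p = 0.724). ADAMTS3, which removes procollagen propeptides, rose with FHT-1015 by 1.62 in 92-1, 1.21 in MP41 and 1.37 in MEL202 (edgeR adjusted p = 2.91e-05, 0.0113 and 0.00139), and it fell by 1.49 with IDE196 (edgeR adjusted p = 0.000294). LOXL2, a lysyl oxidase that cross-links collagen, fell by 2.03 in MP41 with FHT-1015 (edgeR adjusted p = 0.000382) and rose by 1.56 in 92-1 with IDE196 (edgeR adjusted p = 2.39e-06). With FHT-1015 LOXL2 did not pass the test in 92-1 or MEL202, at log2 fold changes of -0.34 and -0.17 (edgeR adjusted p = 0.0773 and 0.743). COLGALT1, a collagen galactosyltransferase, fell by 1.41 and ITGA2, another collagen-binding integrin chain, rose by 2.16 with IDE196 (edgeR adjusted p = 1.05e-09 and 9.04e-09). With FHT-1015 COLGALT1 fell by 1.08 in 92-1 and 1.06 in MP41 (edgeR adjusted p = 3.69e-08 and 0.000314), and ITGA2 rose by 1.38 in MP41 (edgeR adjusted p = 0.00364). Neither passed in MEL202, nor ITGA2 in 92-1 (edgeR adjusted p from 0.067 to 0.317).

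The fibrillar chains COL1A1, COL1A2 and COL3A1 were high together in single libraries. MEL202 with FHT-1015 at 4 h, replicate 2, held 7.85, 3.24 and 7.98 CPM of them, against 0.514 to 1.29, 0.0514 to 0.376 and 4.73 to 5.29 CPM in the other replicates. MP41 with FHT-1015 at 4 h, replicate 2, held 22.8, 3.11 and 2.55 CPM. In the IDE196 experiment the same held for DMSO at 4 h, replicate 6 (23.6, 7.52 and 7.95 CPM), and for IDE196 replicate 3 at 4 h (19.2, 4.78 and 5.58 CPM) and at 24 h (16.5, 1.90 and 3.57 CPM). COL1A2 was called in no comparison of a drug with DMSO. The summed fibroblast markers of these 5 libraries, in the same order, were 1.49, 13.03, 2.81, 3.39 and 2.74 CPM. The first was the lowest of its line and the MP41 value lay within the range of its line, whereas the last 3 were the highest of the 12 libraries in the IDE196 experiment, where the next was 2.17 CPM. The summed epithelial markers of the MEL202 and MP41 libraries were the highest of their lines, at 8.24 CPM (2.83 and 3.17 in the other replicates) and 8.56 CPM (3.67 and 4.46). Most of this was the keratin gene KRT8, at 7.06 against 2.11 and 1.88 CPM and at 7.64 against 2.87 and 2.49 CPM. In the 3 libraries of the IDE196 experiment the epithelial sums were 7.76, 5.24 and 16.06 CPM, none of them the highest of that experiment, 18.7 CPM. The part of these markers in the fibrillar levels was not tested. At lower COL1A2 and COL3A1 levels, further libraries also led the other replicates of their groups in all 3 chains. They were MP41 with FHT-1015 at 24 h, replicate 2 (25.5, 1.09 and 1.28 CPM), and DMSO for IDE196 at 24 h, replicate 6 (9.11, 1.04 and 0.951 CPM).

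**Figure D5:**
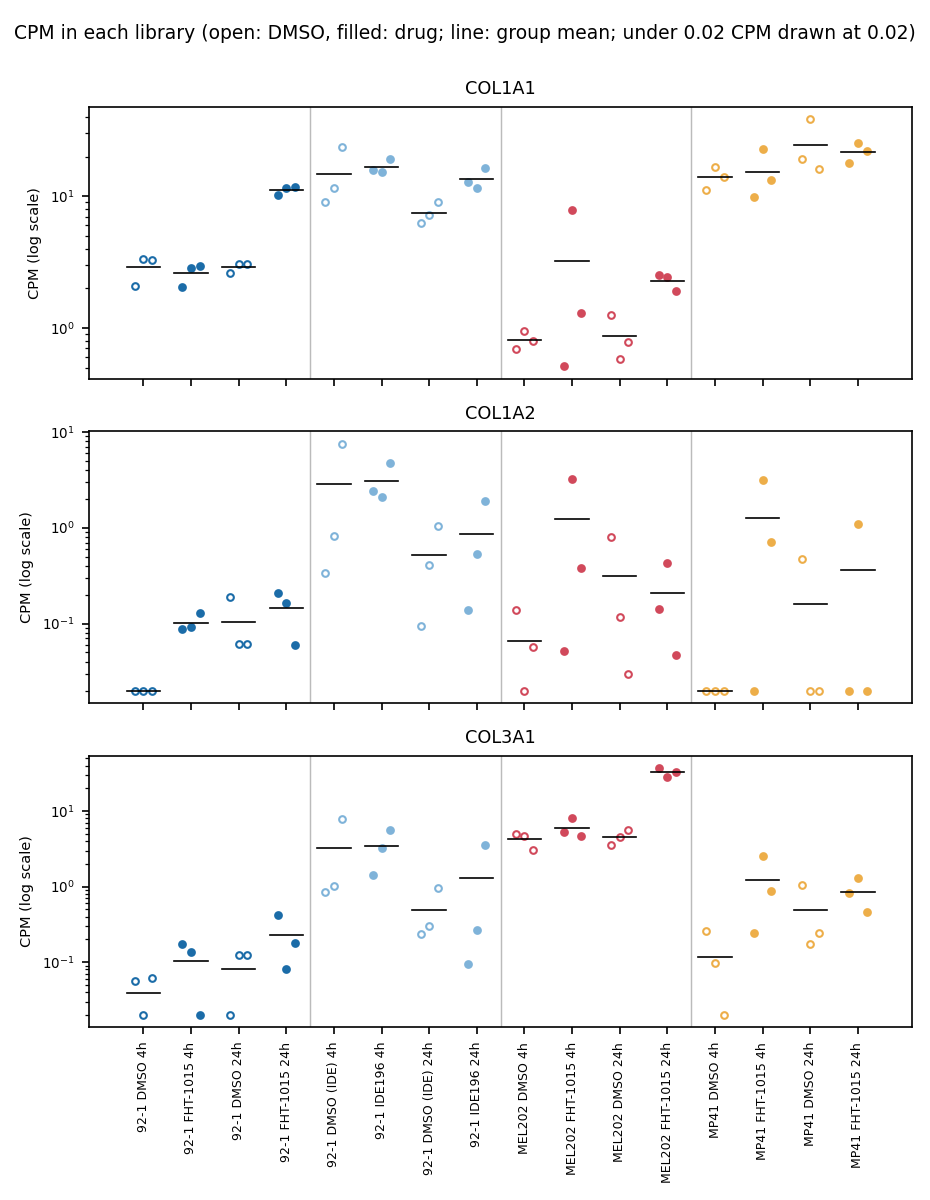
CPM of COL1A1, COL1A2 and COL3A1 in all 48 libraries on log axes, open circles for DMSO, filled circles for drug and short lines for group means. COL3A1 averages 32.8 CPM in MEL202 and COL1A1 11.2 CPM in 92-1 with FHT-1015 at 24 h, and COL1A2 stands out in single libraries.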

How the data were processed

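The authors deposited whole-number read counts per gene for each library, in a STAR-like layout with 1 unstranded and 2 stranded columns; hg38 and limma come from the submitters' processing notes, and the aligner's version and the annotation are not given in the sources used here. The unstranded column was used, since reads split about evenly between the stranded ones (first-strand share 49.728% to 50.112%). Gene names came from GENCODE release 29, which matched 58552 of 58870 IDs. Each experiment of 12 libraries was fitted with edgeR 4.0.16 (R 4.3.3; TMM, default filter on low counts, quasi-likelihood test, Benjamini-Hochberg adjustment over all genes, calls at adjusted p under 0.05). Lines were compared in 1 fit of 36 libraries and drugs in 1 of 24. CPM values share a TMM scale over 48 libraries, RPKM divides them by exon length, and bounds take 3 reads per library as the floor. Scripts were tested on simulated data. Alternatives were DESeq2 1.42.0, limma-voom (limma 3.58.1), relative log expression scaling, no filter, the 6 libraries compared alone, a replicate block, summed stranded columns, each library left out and, chosen after seeing the data, offsets for GC content and length. Values in every replicate were given for the 3 most abundant genes per line, up to 3 called genes per direction and comparison with the largest change at a mean of at least 1 CPM, genes shared between lines or opposite between drugs, and COL4A1 with COL4A2; further called genes were added after seeing their values. The members and lists were chosen with earlier results of these data known. Protein sequences were not used here. The replicate numbers did not pair the libraries: 3 of 18 correlations of same-numbered deviations exceeded 0.1 (range -0.258 to 0.423).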

Additional observations from a re-analysis of the deposited data

Results flagged for a closer look

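The 24 h effect of FHT-1015 differed among the 3 lines, by a test of the difference itself, for 9 of 35 collagen genes. Their edgeR adjusted p-values were 0.0448 for COL16A1, 0.0273 for COL9A2, 0.0327 for COL11A1, 0.00662 for COL4A4, 0.00274 for COL25A1, 0.0166 for COL12A1, 0.00245 for COL26A1, 0.00474 for COL4A1 and 0.00178 for COL4A2. The effects of FHT-1015 and IDE196 in 92-1 differed, likewise tested, for 7 collagen genes at 4 h and 15 at 24 h. The 24 h effect was not that of 4 h, by the same kind of test, for 14 collagen genes in the FHT-1015 experiment on 92-1, for 4 in MEL202, for 11 in MP41 and for 16 in the IDE196 experiment. No group held more than 3 libraries, so none was examined for a single outlying library by Dixon's criterion.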

How the results depend on the processing

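Of 381 values for the 49 gene results under another setting, 371 kept their direction and side of the threshold and 10 lost the call; of 588 with a library left out, 544 kept both and 44 lost the call, and none reversed. Counts that moved by over 1.5 times are given here, and the cause was not tested. The shares of all genes called under these settings, or with a library left out, are not given beside them. With limma-voom, FHT-1015 at 4 h lowered 9 collagen genes in 92-1 and raised 2 in MP41, at 24 h it raised 8 in MEL202 and 6 in MP41, the 24 h minus 4 h effect was called for 8 in MEL202 and 17 in MP41, IDE196 at 4 h raised 0 and lowered 0, the lines differed at 24 h for 20, and DMSO differed with time for 2 in 92-1 and 12 in MP41. With no filter, FHT-1015 at 4 h raised 2 in MEL202 and 2 in MP41 and at 24 h 1 in MP41, the lines differed for 3 at 4 h and 14 at 24 h, and DMSO differed with time for 3 in 92-1, 5 in MP41 and 5 in the IDE196 set. DESeq2 called 1 lower in MEL202 and 1 higher in MP41 at 4 h, and 4 in MP41 and 2 in the IDE196 set between DMSO times. With GC and length offsets the counts were 7 for the MEL202 24 h minus 4 h effect, 6 higher in MP41 at 24 h and 2 for DMSO in 92-1; with only the 6 libraries compared, 1 was higher in MP41 at 24 h.

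With a library left out, the counts higher and lower ran from 1 to 2 and 3 to 6 in 92-1 with FHT-1015 at 4 h, and from 9 to 10 and 12 to 13 at 24 h. They stayed at 0 at 4 h in MEL202 and MP41. At 24 h they ran from 2 to 6 and 3 to 11 in MEL202 and from 1 to 5 and 11 to 12 in MP41. With IDE196 they ran from 1 to 2 and 0 to 1 at 4 h, and from 13 to 17 and 2 to 3 at 24 h. The 24 h minus 4 h counts ran from 12 to 15, 3 to 4, 9 to 12 and 13 to 17 in the order 92-1, MEL202, MP41 and IDE196. Line pairs ran from 27 to 29 (MEL202 and 92-1), 25 to 27 (MP41 and 92-1) and 22 to 26 (MP41 and MEL202). The effect differed among lines for 0 to 1 at 4 h and 5 to 13 at 24 h, and between drugs for 4 to 8 and 14 to 16. DMSO times differed for 0 to 1 in 92-1, 0 in MEL202, 0 to 12 in MP41 and 0 to 1 in the IDE196 set, and the DMSO sets of 92-1 for 17 to 21.

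With the replicate number as a block, FHT-1015 at 4 h raised 1 and lowered 5 in 92-1, and at 24 h raised 11 and lowered 13 in 92-1, 5 and 8 in MEL202, and 2 and 12 in MP41; the block gave 1 call between DMSO times in MP41 and lost COL4A1 in MEL202. IDE196 and its DMSO share no replicate numbers. The 9 genes with at most 13 reads in any library were too shallow to test.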
